A study of Mus musculus with 6 samples.

Results

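Ebf1, Pax5, Tcf3, Ikzf1, Ikzf3, Irf4, Irf8, Spib, Bach2 and Bcl6 encode transcription factors that set up, hold or end the B-cell programme. The 10 genes were taken by symbol from the 23359 gene symbols of the series, each standing on a single row. They were measured by RNA sequencing of mouse bone marrow in 3 libraries labelled NULL (Gab2 -/-, libraries A, B and C) and 3 labelled WT (Gab2 +/+, libraries A, B and C). GAB2 is a docking adaptor that links cytokine receptors and the BCR-ABL1 kinase to SHP2 and phosphatidylinositol 3-kinase, and the series concerns its part in transformation of myeloid and lymphoid cells by BCR-ABL1. The sources used here do not state the strain, age or sex of the mice, any sort, culture or oncogene of these cells, how the Gab2 allele was made, or which libraries share an animal. The p-values therefore measure only the spread between these libraries, which may be technical.

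As background, EBF1 and the E proteins encoded by Tcf3 switch on the early B-cell genes, and PAX5 commits cells to the lineage and shuts down genes of other lineages. Ikaros (Ikzf1) and Aiolos (Ikzf3) are zinc-finger factors that restrain growth of pre-B cells, and human BCR-ABL1 leukaemias often carry IKZF1 lesions. IRF4 and IRF8 bind DNA together with the ETS factors PU.1 and SPI-B and drive the passage out of the cycling pre-B stage, while BACH2 and BCL6 are repressors that hold off plasma-cell genes and act at the pre-B checkpoint.

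Across the set, 6 of the 9 factors that reached the test rose in NULL, 1 fell and 2 were not called. Spib rose most, followed by Ebf1, Bach2, Irf8, Tcf3 and Ikzf3, and Ikzf1 was the factor that fell. The test was limma on log2(FPKM + 1) over the 9916 genes whose mean reached 1 FPKM, where FPKM are fragment counts scaled to transcript length and library size, and a call is a Benjamini-Hochberg adjusted p of at most 0.05. In the same comparison 23.3% of all tested genes were called higher and 42.0% lower, 65.3% in either direction, so a call as such is common here. The median log2 change was 0.51 over the 9 factors and -0.13 over all tested genes. Bcl6 stayed under the expression filter and is given by its values. All NULL libraries lay above all WT libraries for 7 of the 10 factors, and below them for 1. Among tested genes the shares were 26.0% above and 45.1% below, a set without Bcl6, which is 1 of the 7. A single factor can reach no lower than p = 0.1 in an exact two-sided permutation test of 3 against 3 libraries, and the 8 factors without overlap all stood at that value.

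Gab2 itself read 0.123, 0.145 and 0.203 FPKM in the NULL libraries A, B and C, against 3.33, 3.10 and 2.43 FPKM in the WT libraries. Low FPKM steps placed the depth at roughly 22400000 to 67600000 fragments in NULL and 17000000 to 51300000 fragments in WT, an approximation that supports no counting interval. Of the markers of non-lymphoid marrow cells, some were at 0 and others were not. Elane, S100a8, S100a9, Cd14 and Cebpe of granulocytes and monocytes and the globin genes Hba-a1 and Hba-a2 were listed at 0 FPKM in all 6 libraries. From the same granulocyte and monocyte list, Lyz2 and Itgam were called higher in NULL. The 9 erythroid markers summed to 159 to 184 FPKM in NULL and 261 to 351 FPKM in WT, nearly all of it Tfrc. The 13 T and NK cell markers that were found summed to 0.882 to 1.54 FPKM in NULL and 0.519 to 0.577 FPKM in WT, and the 7 conventional dendritic cell markers to at most 0.511 and 0.406 FPKM.

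For the genes with the largest rises, Spib and Ebf1, and for Ikzf1, which fell, the RefSeq promoter windows on GRCm38.p6 are shown, so that the DNA at the start of each transcript can be read beside its values. Each window runs from 250 bases before to 50 bases after a start site, 5′ to 3′ on the strand of the gene. The Spib window is chr7:44532022-44532321 on the minus strand. The Ebf1 windows are chr11:44617850-44618149 and chr11:44619978-44620277 on the plus strand, and the Ikzf1 windows chr11:11685675-11685974 and chr11:11689927-11690226 on the plus strand. Capitals mark matches, on either strand, to short letter patterns known for the factors themselves, listed after the sequences.
Spib: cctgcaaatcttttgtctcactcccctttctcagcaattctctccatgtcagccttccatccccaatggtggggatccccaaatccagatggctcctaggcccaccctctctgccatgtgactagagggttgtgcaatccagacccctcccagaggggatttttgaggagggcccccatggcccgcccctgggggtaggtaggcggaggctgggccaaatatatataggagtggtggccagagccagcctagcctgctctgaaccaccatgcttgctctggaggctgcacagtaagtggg
Ebf1 upstream start: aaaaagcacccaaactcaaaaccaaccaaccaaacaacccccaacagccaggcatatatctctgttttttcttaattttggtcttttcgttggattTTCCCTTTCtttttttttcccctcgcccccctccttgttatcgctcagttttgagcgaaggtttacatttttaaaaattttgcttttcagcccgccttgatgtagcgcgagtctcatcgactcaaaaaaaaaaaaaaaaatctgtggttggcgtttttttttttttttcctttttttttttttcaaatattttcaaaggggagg
Ebf1 downstream start: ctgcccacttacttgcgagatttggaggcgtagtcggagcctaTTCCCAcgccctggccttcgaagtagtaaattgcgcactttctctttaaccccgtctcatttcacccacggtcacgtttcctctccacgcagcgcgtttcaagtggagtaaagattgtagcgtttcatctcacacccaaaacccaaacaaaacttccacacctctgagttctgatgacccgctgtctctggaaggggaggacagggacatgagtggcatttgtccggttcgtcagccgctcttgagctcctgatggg
Ikzf1 upstream start: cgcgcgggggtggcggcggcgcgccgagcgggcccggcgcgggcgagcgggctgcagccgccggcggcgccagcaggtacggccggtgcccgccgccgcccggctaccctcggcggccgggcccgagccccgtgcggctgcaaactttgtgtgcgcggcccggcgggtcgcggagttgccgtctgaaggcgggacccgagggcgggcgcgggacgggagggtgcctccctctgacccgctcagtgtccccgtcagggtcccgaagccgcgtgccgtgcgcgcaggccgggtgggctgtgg
Ikzf1 downstream start: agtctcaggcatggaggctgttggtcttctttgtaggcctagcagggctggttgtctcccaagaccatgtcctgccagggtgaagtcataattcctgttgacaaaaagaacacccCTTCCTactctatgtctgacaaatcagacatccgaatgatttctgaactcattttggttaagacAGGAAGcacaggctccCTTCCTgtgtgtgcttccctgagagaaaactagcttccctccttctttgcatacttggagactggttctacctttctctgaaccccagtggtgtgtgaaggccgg

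The patterns searched were CAGCTG and CAGGTG (E-boxes of E proteins), TCCCNNGGG (EBF core), TGGGAA (Ikaros core), AGGAAG (ETS core, the family of SPI-B and PU.1) and GAAANNGAA (IRF core). The Spib window held none of them. The upstream Ebf1 window held an IRF core on the minus strand, and the downstream Ebf1 window an Ikaros core on the minus strand. The downstream Ikzf1 window held 3 ETS cores and the upstream window, at 81.3% GC, held no match. RefSeq windows were matched for 9 of the 10 factors, 13 windows in all, and not for Ikzf3. Ikaros cores occurred in 3 of the 13 windows and in 25.6% of 32851 promoter windows of the same length, and ETS cores in 4 of 13 against 35.4%. IRF cores occurred in 1 of 13 against 8.56%, CAGGTG in 1 of 13 against 20.2%, CAGCTG in 0 of 13 against 16.3% and EBF cores in 0 of 13 against 6.56%. No matches overlapped in these windows. A letter match does not show binding, and a missing match says only that these letters are not in the window.

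**Figure D1:**
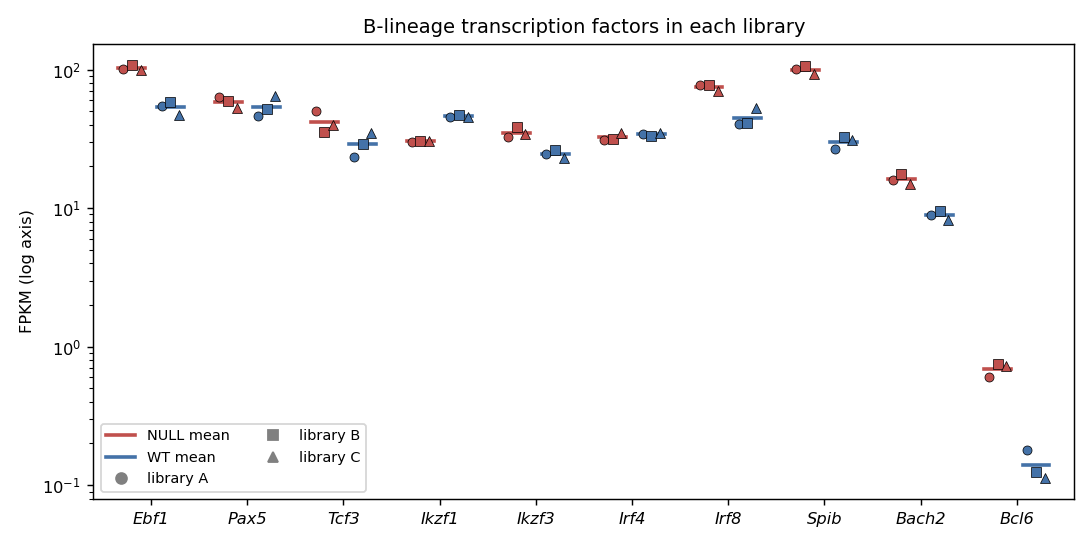
Level of each factor in FPKM on a log axis, with each library as a point (circle A, square B, triangle C) and group means as bars, NULL in red to the left and WT in blue to the right. Spib and Ebf1 separate widely, with Spib between 92.2 and 105.9 FPKM in NULL, while Pax5 and Irf4 overlap.

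Among the initiating factors, Ebf1 (chromosome 11, 44617317 to 45008091 on GRCm38, plus strand) was clearly higher in NULL. It read 101.3, 108 and 99.1 FPKM in the NULL libraries A, B and C, against 54.3, 58.6 and 47.0 FPKM in the WT libraries. Every NULL library exceeded every WT library by a wide margin, and WT C was the lowest. The means were 102.9 ± 4.87 FPKM in NULL and 53.3 ± 5.85 FPKM in WT (SD, n = 3 each), a log2 change of FPKM + 1 of 0.94 (SE 0.092, limma adjusted p = 9.27e-05). Of all tested genes 4.56% had a positive change at least as large, falls not counted.

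Tcf3 (chromosome 10, 80409514 to 80433647, minus strand), which encodes the E proteins E12 and E47, was higher by less and with more scatter. Its levels were 50.3, 35.3 and 39.9 FPKM in NULL and 23.5, 29.1 and 34.6 FPKM in WT. The groups do not overlap, but NULL B lies only just above WT C. The log2 change was 0.51 (SE 0.17, limma adjusted p = 0.026), and the call was lost without NULL A, NULL C, WT A or WT B, with adjusted p-values from 0.057 to 0.078, and without the expression filter (0.068).

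Pax5 (chromosome 4, 44524757 to 44710487, minus strand), the commitment factor that EBF1 helps to switch on, was not called. It measured 63.1, 59.5 and 53.0 FPKM in NULL and 45.9, 51.6 and 64.1 FPKM in WT. WT C was the highest of all 6 libraries and WT A the lowest, so the NULL values lie inside the WT range. The log2 change was 0.13 with a 95% interval from -0.17 to 0.42 (limma adjusted p = 0.40). Leaving out single libraries gave values from 0.02 without WT A (limma adjusted p = 0.89) to 0.26 without WT C (adjusted p = 0.051), with 0.07 without NULL A (adjusted p = 0.67) and 0.20 without NULL C (adjusted p = 0.27). Pax5 was called higher by limma under quantile scaling (0.54, adjusted p = 0.0049) and when libraries were brought to equal totals with small RNA genes left out (0.50, adjusted p = 0.0013).

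The Ikaros family members moved in opposite directions. Ikzf1 (chromosome 11, 11685003 to 11772926, plus strand) read 30.005, 30.4 and 30.7 FPKM in NULL and 45.3, 46.8 and 45.4 FPKM in WT. The libraries of each group lay close together, the tightest spread of the 9 tested factors relative to the level. NULL held 66.2% of the WT mean, a log2 change of -0.58 (SE 0.056, limma adjusted p = 8.85e-05). The direction held under all 4 rescalings, but limma made no call when libraries were brought to equal totals, with small RNA genes (-0.30, adjusted p = 0.41) or with these left out (-0.21, adjusted p = 0.055).

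Ikzf3 (chromosome 11, 98464902 to 98546031, minus strand), whose product Aiolos comes up as pre-B cells mature, was higher. It read 32.5, 38.3 and 34.2 FPKM in NULL and 24.4, 26.2 and 23.2 FPKM in WT, with a clear gap between the groups. The log2 change was 0.49 (SE 0.082, limma adjusted p = 0.0012). Ikzf3 exceeded Ikzf1 in every NULL library, and Ikzf1 exceeded Ikzf3 in every WT library. The ratio of Ikzf3 to Ikzf1 within a library was 1.08, 1.26 and 1.11 in NULL and 0.538, 0.560 and 0.510 in WT. Multiplying a whole library by a constant does not change such a ratio.

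The IRF genes also differed from each other. Irf8 (chromosome 8, 120736358 to 120756694, plus strand) read 76.7, 76.9 and 70.5 FPKM in NULL and 40.6, 40.9 and 52.5 FPKM in WT. WT C was the highest WT library and still lay below all NULL libraries. The log2 change was 0.74 (SE 0.11, limma adjusted p = 0.00060), and 7.2% of tested genes had a positive change at least as large. Irf4 (chromosome 13, 30749226 to 30766976, plus strand) read 31.0, 31.4 and 34.9 FPKM in NULL and 34.5, 32.9 and 34.9 FPKM in WT, and the groups overlap. Its log2 change was -0.07 with a 95% interval from -0.23 to 0.09 (limma adjusted p = 0.38) on the deposited scale, and turned positive under all 4 rescalings (0.08 to 0.30), with a call in 2 of them.

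Spib (chromosome 7, 44525993 to 44532071, minus strand) encodes SPI-B, an ETS factor closely related to PU.1 that pairs with IRF4 and IRF8. It showed the largest log2 change of the 9 tested factors. Spib read 100.6, 105.9 and 92.2 FPKM in NULL and 26.6, 32.7 and 30.9 FPKM in WT. The lowest NULL library was well above the highest WT library. The means of 99.6 ± 6.90 FPKM in NULL and 30.1 ± 3.13 FPKM in WT (SD, n = 3 each) stand in a ratio of 3.31, with a log2 change of 1.70 (SE 0.094, limma adjusted p = 1.58e-05). Positive changes at least as large were seen in 1.04% of tested genes, and 3.94% were called higher with a log2 change of at least 1, a size that Spib alone of the 9 reached on the deposited scale.

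The repressor Bach2 (chromosome 4, 32238804 to 32586108, plus strand) was weaker in level but also higher. It read 15.9, 17.7 and 14.97 FPKM in NULL and 8.92, 9.53 and 8.24 FPKM in WT, without overlap. The log2 change was 0.80 (SE 0.083, limma adjusted p = 0.00012). Bcl6 (chromosome 16, 23965052 to 23988852, minus strand), a repressor that protects pre-B cells during light-chain recombination, was close to silent. It read 0.605, 0.748 and 0.722 FPKM in NULL and 0.181, 0.124 and 0.112 FPKM in WT, and all NULL libraries were above all WT libraries. The NULL mean was 4.98 times the WT mean at levels below 1 FPKM in both groups. Without the expression filter Bcl6 was called higher (log2 change of FPKM + 1 0.57, limma adjusted p = 0.00034), an increase of under 1 FPKM.

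**Figure D2:**
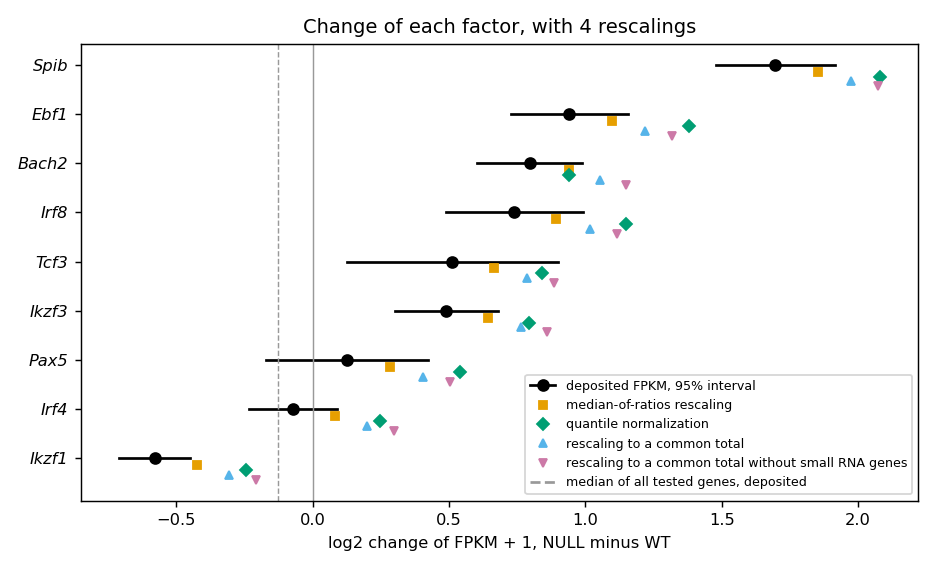
Log2 change of FPKM + 1, NULL minus WT, for the 9 tested factors, with the deposited scale as black points with 95% intervals and 4 rescalings as coloured symbols. The dashed line is the median of all tested genes at -0.13. The 6 called factors with positive changes stay positive under each rescaling, Ikzf1 stays negative, and Irf4 changes sign.

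The rescalings moved the median of all tested genes, and quantile scaling moved genes by unequal amounts. The median became 0.01 under median-of-ratios scaling, -0.03 under quantile scaling, 0.12 with equal totals and 0.20 with equal totals that leave out small RNA genes. Ebf1, Tcf3, Ikzf3, Irf8, Spib and Bach2 were called higher in all 4 of these. In that order of scalings, 6, 8, 6 and 8 factors were called higher and 1, 1, 0 and 0 lower. Of all 9917, 9916, 9953 and 9876 tested genes, 3152, 2824, 2055 and 4560 were called higher. Those called lower numbered 3238, 3278, 999 and 2076, so the factor counts shifted along with the whole table. Behind these limma counts of 0, the factors lower at an unadjusted p below 0.05 numbered 0 with equal totals and 1 when small RNA genes were left out. Without WT C, 6 factors were called higher and 1 lower, beside 2415 and 4073 of all 9909 tested genes. WT C had the lowest Rag1, Dntt and Il7r, but the early B-stage markers did not all go this way. Igll1 and Cd24a were highest in WT C among the WT libraries, and Vpreb1 and Ptprc lay between the other WT libraries.

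**Figure D3:**
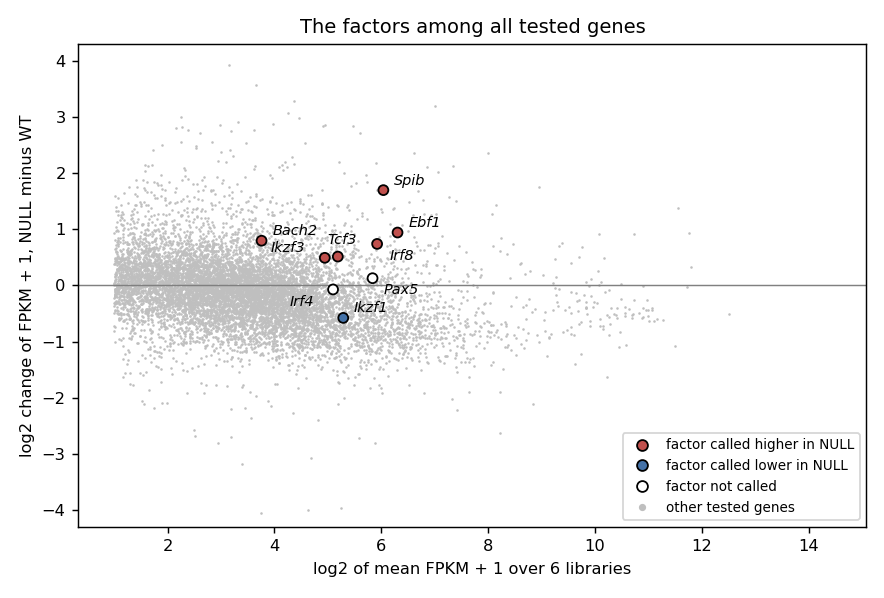
Log2 change against log2 of mean level (FPKM + 1, 6 libraries) for all 9916 tested genes in grey and the 9 tested factors as larger points, red where called higher, blue where called lower and white where not called. Spib stands at 1.70 and Ikzf1 at -0.58.

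Ratios of factors within a library are not changed by multiplying that library by a constant, although quantile scaling can change them. The Ebf1 to Pax5 ratio was 1.61, 1.82 and 1.87 in NULL and 1.18, 1.14 and 0.733 in WT. Ebf1 thus exceeded Pax5 in all NULL libraries and in WT A and B, but not in WT C. The Irf8 to Irf4 ratio was 2.48, 2.45 and 2.02 in NULL and 1.18, 1.24 and 1.505 in WT. The Spib to Irf4 ratio was 3.25, 3.37 and 2.64 in NULL and 0.771, 0.994 and 0.886 in WT, so that Spib lay above its partner gene in every NULL library and below it in every WT library. On the log2 scale these ratios differed by 0.82, 0.83 and 1.80 between the groups, and Ikzf3 to Ikzf1 by 1.10.

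Pax5 relative to Tcf3 was lower in NULL, with ratios of 1.25, 1.69 and 1.33, against 1.95, 1.77 and 1.86 in WT. The Ebf1 to Tcf3 ratio overlapped, at 2.01, 3.07 and 2.48 in NULL and 2.31, 2.01 and 1.36 in WT. Bach2 relative to Bcl6 was 26.3, 23.6 and 20.7 in NULL and 49.4, 77.2 and 73.3 in WT, a log2 difference of -1.48 that rests on Bcl6 levels under 1 FPKM and turned to 0.23 when 1 FPKM was added to both genes. Exact two-sided permutation tests gave p = 0.1 for 6 of the 7 ratios, the smallest possible, and p = 0.2 for Ebf1 to Tcf3, or 0.12 and 0.2 after Benjamini-Hochberg adjustment over the 7.

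**Figure D4:**
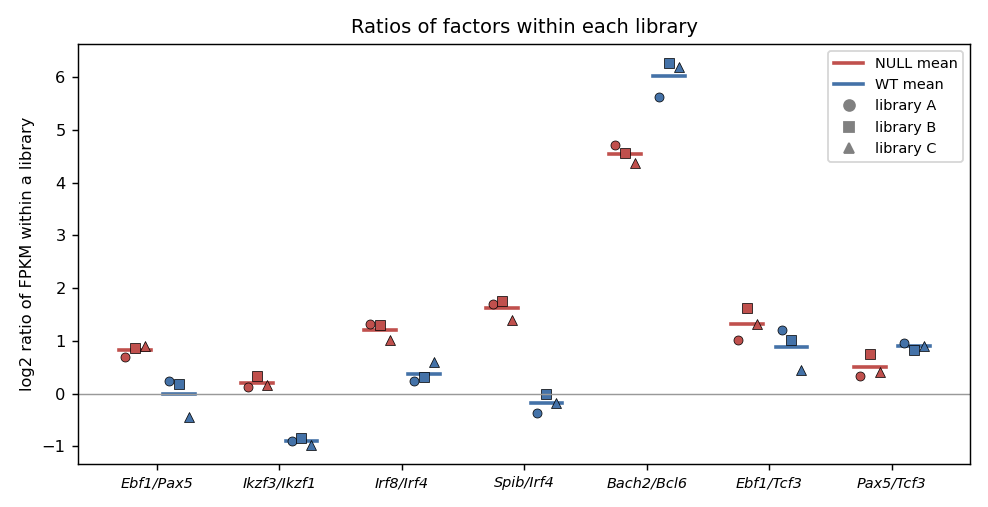
Log2 ratio of FPKM within each library for 7 chosen pairs of factors, NULL in red to the left and WT in blue to the right, with bars at the group means. The groups do not overlap for 6 pairs, and overlap for Ebf1 to Tcf3.

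The order of the levels changed with these shifts. In NULL the order by mean was Ebf1, Spib, Irf8, Pax5, Tcf3, Ikzf3, Irf4, Ikzf1, Bach2 and Bcl6. The ranges of Ebf1 and Spib overlapped across the 3 libraries, although Ebf1 was above Spib within each library. The ranges of Tcf3 and Ikzf3 and of Ikzf3 and Irf4 also overlapped, and the other neighbours did not. In WT the order was Pax5, Ebf1, Ikzf1, Irf8, Irf4, Spib, Tcf3, Ikzf3, Bach2 and Bcl6. There Pax5 overlapped Ebf1, Ikzf1 lay inside the range of Irf8, and the ranges of Spib and Tcf3 and of Tcf3 and Ikzf3 overlapped, while the other neighbours did not. Spib made up 19.6% to 21.0% of the summed FPKM of the 10 factors in NULL and 8.75% to 9.96% in WT, and Ikzf1 5.98% to 6.52% in NULL and 13.3% to 14.9% in WT. The sum was 470 to 504.45 FPKM in NULL and 304 to 341 FPKM in WT. Among tested genes ranked by level within a group, Spib stood at percentile 96.2 in NULL and 80.2 in WT, and Bach2 at percentile 68.8 in NULL and 46.3 in WT.

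Other transcription factors of B-cell development moved in both directions. Of 18 tested genes in this list 9 rose and 5 fell, with a median log2 change of 0.28. Among all tested genes 23.3% were called higher and 42.0% lower. Lef1, a WNT-pathway factor of early B cells, read 42.6, 50.5 and 42.0 FPKM in NULL and 18.5, 20.8 and 11.3 FPKM in WT (log2 change 1.40), and the ETS factor Erg averaged 68.8 ± 2.09 FPKM in NULL and 28.7 ± 4.22 FPKM in WT (SD, n = 3 each). Mef2c and Cbfb, the partner subunit of RUNX factors, each fell by 0.74 on the log2 scale, kept their direction under all 4 rescalings and their calls under 3. PU.1 (Spi1, listed under an older symbol), the relative of SPI-B, was lower at 6.28, 4.67 and 5.22 FPKM in NULL, against 8.26, 7.36 and 11.5 FPKM in WT (log2 change -0.64, limma adjusted p = 0.0087). It was singled out as the partner of the IRF factors after its values were seen, and 3 of the 4 rescalings kept its call.

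The dimer partners and inhibitors of the E proteins were called in 2 of 4 tested genes, both higher. Among all tested genes 65.3% were called in either direction and 23.3% higher. Id2, whose product blocks E proteins from DNA, read 3.25, 3.34 and 3.37 FPKM in NULL and 1.11, 1.15 and 2.23 FPKM in WT, and the E-protein gene Tcf4 10.7, 11.9 and 11.9 FPKM in NULL and 7.68, 8.03 and 7.02 FPKM in WT. Id3 was not called at 17.7 ± 4.33 FPKM in NULL and 17.0 ± 3.11 FPKM in WT (SD, n = 3 each).

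Of 9 tested genes for Ikaros relatives and the NuRD complex, a chromatin remodeller with which Ikaros associates, 6 fell and 3 were not called (median -0.22). Among all tested genes 42.0% were called lower. The histone-binding subunit Rbbp4 averaged 47.7 ± 2.81 FPKM in NULL and 74.7 ± 3.43 FPKM in WT and the deacetylase Hdac2 53.1 ± 4.35 FPKM in NULL and 80.5 ± 3.55 FPKM in WT (SD, n = 3 each). The number that fell was 2, 1, 0 and 1 under the 4 rescalings, so most of these calls depend on the scale. The number that rose was 0, 1, 0 and 2, and the list median was -0.07, 0.01, 0.04 and 0.13. Rbbp4 kept its call under 3 of the 4 and Hdac2 under 1. Of 8 tested corepressors and dimer partners of BCL6, BACH2 and PAX5, 4 rose and 1 fell, against 23.3% and 42.0% of all tested genes. Mafk, a small MAF protein that dimerizes with BACH2, rose by 0.66 and the corepressor Tle3 by 0.63 on the log2 scale, while the deacetylase Hdac3 fell by 0.42, a call that held under 1 of the 4 rescalings.

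Genes known to be activated by EBF1 or PAX5 included 17 that were tested, of which 13 rose and 1 fell. Their median change on the log2 scale was 0.71, against -0.13 for all tested genes, of which 23.3% were called higher and 42.0% lower. The list was drawn up with earlier results of these libraries known, so its direction is not independent evidence. The kinase gene Blk read 154, 164 and 151 FPKM in NULL and 44.7, 50.4 and 48.6 FPKM in WT, a log2 change of 1.69 (SE 0.073, limma adjusted p = 8.91e-06). The count was 12 to 15 higher and 0 or 1 lower under the rescalings, and 13 and 1 without WT C.

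Genes that PAX5 is known to repress were mostly below the filter. Of 9 genes 3 were tested and 1 rose, namely Notch1, the T-lineage receptor. It read 5.23, 4.17 and 3.82 FPKM in NULL and 2.23, 2.69 and 2.35 FPKM in WT. Under the 4 rescalings 2, 2, 1 and 3 of the 3 tested genes were called higher, so this count depends on the scale. Flt3, Csf1r, Cd28 and Prdm1 stayed at or below 0.219 FPKM in every library, with all NULL libraries above all WT libraries for Prdm1 only. Jchain, listed under an older symbol, averaged 0.705 FPKM in NULL and 1.27 FPKM in WT, and Ccr2 0.0710 and 0.344 FPKM. Both were untested, with all NULL libraries below all WT libraries. Of 11 tested genes known to be repressed by BCL6, 3 rose and 6 fell, where 23.3% of all tested genes were called higher and 42.0% lower. The cell-cycle inhibitor Cdkn1a rose by 1.32 and Id2 by 0.82 on the log2 scale, and the checkpoint kinase genes Chek1 and Atr fell by 1.23 and 0.98. The split was 4 and 5, 5 and 4, 4 and 3, and 5 and 3 under the 4 rescalings, so its balance depends on the scale.

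**Figure D5:**
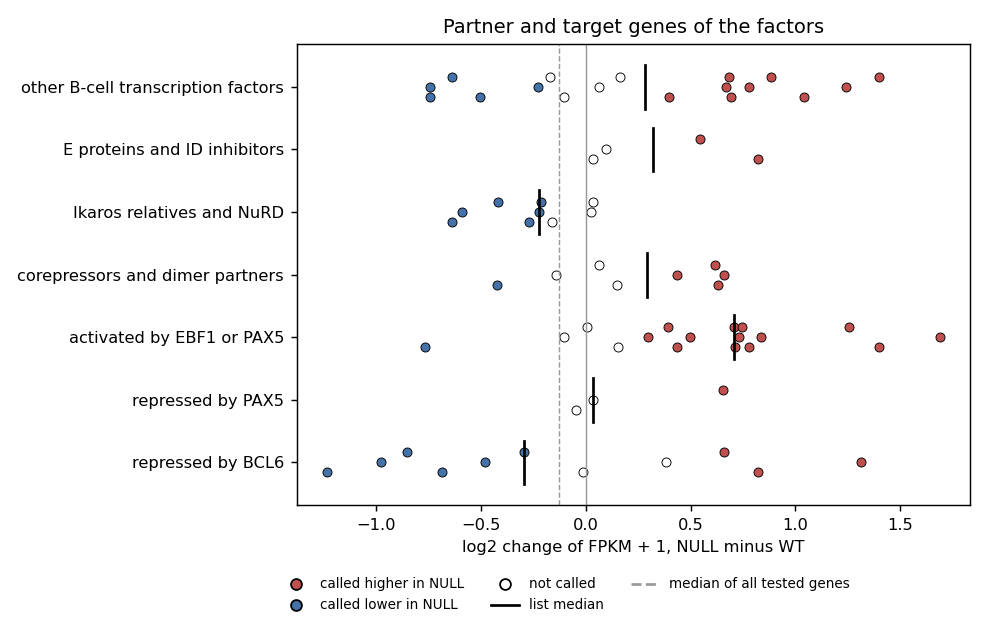
Log2 change of FPKM + 1, NULL minus WT, of the tested genes in 7 lists of partners and known targets, red where called higher, blue where called lower and white where not called, with a black bar at each list median and a dashed line at the median of all tested genes (-0.13). Genes activated by EBF1 or PAX5 centre on 0.71.

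Markers of B-cell stage and of the cell cycle moved with the groups. Early B-stage markers rose in 7 of 9 tested genes, with Il7r at 66.0, 85.1 and 76.3 FPKM in NULL and 13.04, 13.9 and 4.92 FPKM in WT, and Dntt at 165, 155 and 162 FPKM in NULL and 34.5, 49.5 and 16.3 FPKM in WT. Of 11 late B-stage markers 8 were found and 3 tested, and all 3 fell, led by Cd22 and Tnfrsf13c. Cd74 lost its call without NULL B (limma adjusted p = 0.052), and equal totals kept 2 of the 3 calls. Among all tested genes 23.3% were called higher and 42.0% lower. All 18 proliferation markers fell, with Rrm1 and Bub1 lower by a log2 change of -1.47 and -1.33, and 15 to 18 of them were called lower under the 4 rescalings. The 18 summed to 852 to 1159 FPKM in NULL and 2245 to 2253 FPKM in WT. In bulk RNA a changed share of cells at a stage and a changed amount of RNA per cell cannot be told apart, and the part of stage and cell cycle in the levels of the factors was not tested.

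Markers of other cells that use some of these factors differed in level. Of 8 markers of plasmacytoid dendritic cells, which express Irf8 and Spib, only Tcf4 and Bst2 were tested. Tcf4 was called higher and Bst2 lower. Siglech read 0.0932, 0.0391 and 0.0613 FPKM in NULL and 0, 0 and 0.0049 FPKM in WT, without overlap. Ccr9 averaged 0.110 FPKM in NULL and 0.0461 FPKM in WT, and Cox6a2 0.302 and 0.118 FPKM, both with overlap. Runx2, Pacsin1 and Klk1 were at most 0.0611 FPKM in all libraries. The list summed to 16.8 to 17.4 FPKM in NULL and 16.2 to 20.9 FPKM in WT, nearly all of it Tcf4 and Bst2. Granulocyte and monocyte markers summed to 7.32 to 8.30 FPKM in NULL and 0.846 to 0.997 FPKM in WT, with 2 of 16 tested and both higher. Most of the NULL sum was Itgam, an integrin chain also found on some B cells, and Lyz2. Itgam read 4.58, 4.53 and 4.57 FPKM in NULL and 0.0738, 0.0493 and 0.0291 FPKM in WT. Ccr2 of the same list, too low to be tested, read 0.0715, 0.0620 and 0.0795 FPKM in NULL and 0.295, 0.225 and 0.511 FPKM in WT, and was the largest part of the sum in WT C. Mast cell and megakaryocyte markers summed to 1.11 to 2.62 FPKM in NULL and 0.0111 to 0.138 FPKM in WT. Plasma cell markers, which accompany high Irf4, summed to 200.1 to 216 FPKM in NULL and 196 to 224 FPKM in WT, nearly all of it Mzb1 and Xbp1, neither of which was called on the deposited scale. Of the 4 tested genes Derl3 rose and Sdc1 fell, and the inducer Prdm1 was at most 0.119 FPKM. Among all tested genes 23.3% were called higher and 42.0% lower, 65.3% in either direction, so the few calls in these lists are common here. The part of other cell types in the changes of the factors was not tested.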

How the data were processed

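The authors deposited FPKM per gene symbol for each of 6 bone marrow libraries (3 NULL, 3 WT), from paired-end sequencing of polyadenylated RNA prepared with a strand-specific kit, per the labels' protocols. The submitters' processing notes name Bowtie, Cufflinks, mm10 and GRCm38 without versions or roles. Annotation, filters and scaling were not given in the sources used here, which limits what a level means. Each table held 23848 rows; 256 symbols were repeated, of each the row highest on average was used, and 489 rows were dropped. The series-wide table differed from the library tables in 0 values.

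FPKM allow no count model. Values were tested as log2(FPKM + 1) with limma 3.58.1 in R 4.3.3 (empirical Bayes with a mean-variance trend, two-sided, Benjamini-Hochberg over all tested genes, threshold 0.05) for symbols with a mean of at least 1 FPKM; fold changes on this scale understate those of weak genes. The fit was also run on simulated data with independent noise and few changed genes. These data differ from that setting, so the run does not give the error rate here. Depth was estimated from the peak in the distribution of low FPKM times annotated transcript length, taken as the worth of 1 fragment. Positions are from GENCODE vM21 on GRCm38 and promoter windows from RefSeq on GRCm38.p6. The members, gene lists and tests were chosen with earlier results of these data known. From each list the text names up to 2 called genes with the largest change in each direction, plus genes that describe cell content; Spi1, Id3, Mzb1, Xbp1 and the untested genes named were picked after their values were seen. A called gene of the EBF1 and PAX5 list is not reported here by name. Alternatives covered pseudocounts, filters, 4 rescalings, summed rows, variance models, the replicate letter as a block and leaving out each library.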

Additional observations from a re-analysis of the deposited data

How the results depend on the processing

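Spib, Ebf1, Irf8, Bach2 and Ikzf3 kept their direction and call in all 18 alternatives, with log2 changes from 1.58 to 2.08, 0.83 to 1.38, 0.68 to 1.15, 0.61 to 1.15 and 0.43 to 0.86. Tcf3 kept its direction in 18 and its call in 13, and Ikzf1 its direction in 18 and its call in 16. Irf4 was reversed with a call under quantile scaling (0.25) and with equal totals that leave out small RNA genes (0.30). Bringing libraries to equal totals left 3054 calls, against 6479 on the deposited scale, and both forms of equal totals left 0 factors called lower by limma, against 1 (unadjusted p below 0.05 in 0 and 1). The share of lower genes among all calls was 64.3% as deposited, 50.7% under median-of-ratios scaling, 53.7% under quantile scaling, 32.7% with equal totals and 31.3% with equal totals that leave out small RNA genes. Small RNA genes took 6.07% (WT A) to 31.4% (WT C) of summed FPKM. With 1 FPKM added to both genes, the Bach2 to Bcl6 difference reversed to 0.23. The causes were not tested. The replicate block (letters A, B and C) gave 5844 calls with 6 factors higher and 1 lower; same-lettered libraries deviated together with correlations of 0.073, 0.36 and 0.13, and all 6 libraries correlated best with their own letter, a hint from the data and not from the design. Leaving out single libraries gave 5825 to 6488 calls, 5 or 6 factors higher and 1 lower. FPKM carry no counts, so the precision of Bcl6 and other genes under 1 FPKM is unknown.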
